A study of Mus musculus with 9 samples.

Results

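Immediate early genes are switched on within minutes of a stimulus from factors already present in the cell, and many of their products then shape or end the response. The 10 genes described here are a chosen part of this class outside the AP-1 family: the transcription factor genes Egr1, Egr2, Egr3, Nr4a1 and Myc, the nuclear regulator gene Ier2, and 4 genes of feedback and stress proteins, Dusp1, Zfp36, Ier3 and Gadd45b. They were chosen as a list of symbols, with earlier results of these data known. All 10 were found among the 23282 entries of each count table, and all 10 passed the filter on low counts, which left 13740 genes. They were followed in skin from the back of C57BL/6 wild-type animals, in 3 groups of 3 libraries: unstripped skin labelled as given control cream, tape-stripped skin given control cream, and tape-stripped skin given a cream with NGO (graphene oxide of nano size, a sheet-like carbon material), at 50 µg in 100 µL per mouse. Tape stripping peels off the outer layers of the epidermis. Skin was taken 24 h after treatment, long past the minutes in which such genes are first induced. The protocol names the stripped area as the place of cream, and whether unstripped skin also received it cannot be told from the labels. Age and sex are not given, and no label ties the replicates to separate animals. The p-values therefore rest on the spread among these 9 libraries, which may be technical.

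In most cells mitogens, cytokines and stress act through MAP kinases on serum response factor (SRF) and its ETS partners, and through cyclic AMP on CREB, to start many immediate early genes. The EGR proteins are zinc finger transcription factors, and Nr4a1 encodes an orphan nuclear receptor. DUSP1 is a nuclear phosphatase that switches MAP kinases off, and ZFP36 (tristetraprolin) binds AU-rich sequences in cytokine mRNAs and speeds their decay. IER3 acts on ERK signalling and cell survival, and GADD45B is a stress-induced partner of kinases upstream of p38 and JNK. MYC drives growth and ribosome production, and in epidermis its level bears on how long basal cells stay proliferative.

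RefSeq promoter windows (GRCm38.p6, 250 bases before to 50 after a start site) were at hand for 6 of the 10 genes. The 4 windows shown belong to the genes whose levels separated the groups in different ways in the results that follow: Dusp1 and Nr4a1, which had their highest means in stripped control skin and their lowest with NGO, Ier3, which was high in both stripped groups, and Egr2, which was lowest in stripped control skin. They are written 5′ to 3′ on the strand of the gene, and capitals mark the searched motifs found on either strand. Dusp1 held a cyclic AMP response element (CRE) TGACGTCA and an E-box CACGTG. Nr4a1 held an EGR site GCGGGGGCG and an NF-kB site, and Ier3 an NF-kB site, each of them on the opposite strand. Egr2 held a CArG box, the sequence that SRF binds.
Dusp1, chr17:26508423-26508722, minus strand: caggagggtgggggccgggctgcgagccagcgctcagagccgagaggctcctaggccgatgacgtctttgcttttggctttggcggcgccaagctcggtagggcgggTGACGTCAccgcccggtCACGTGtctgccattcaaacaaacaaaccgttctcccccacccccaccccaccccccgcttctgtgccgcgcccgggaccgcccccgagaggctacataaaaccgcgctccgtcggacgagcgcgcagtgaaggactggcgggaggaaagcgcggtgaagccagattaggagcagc
Nr4a1, chr15:101266596-101266895, plus strand: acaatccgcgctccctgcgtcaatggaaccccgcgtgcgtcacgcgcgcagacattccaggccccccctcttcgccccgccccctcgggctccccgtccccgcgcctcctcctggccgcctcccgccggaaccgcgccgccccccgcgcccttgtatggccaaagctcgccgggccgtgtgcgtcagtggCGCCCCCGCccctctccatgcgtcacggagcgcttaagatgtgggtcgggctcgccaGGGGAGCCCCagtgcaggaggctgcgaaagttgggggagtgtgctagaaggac
Ier3, chr17:35821463-35821762, plus strand: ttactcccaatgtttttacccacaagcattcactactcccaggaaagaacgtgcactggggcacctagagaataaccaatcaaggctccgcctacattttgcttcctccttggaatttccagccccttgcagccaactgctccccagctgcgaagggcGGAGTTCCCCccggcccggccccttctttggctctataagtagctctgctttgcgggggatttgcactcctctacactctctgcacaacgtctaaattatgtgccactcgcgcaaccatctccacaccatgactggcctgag
Egr2, chr10:67537619-67537918, plus strand: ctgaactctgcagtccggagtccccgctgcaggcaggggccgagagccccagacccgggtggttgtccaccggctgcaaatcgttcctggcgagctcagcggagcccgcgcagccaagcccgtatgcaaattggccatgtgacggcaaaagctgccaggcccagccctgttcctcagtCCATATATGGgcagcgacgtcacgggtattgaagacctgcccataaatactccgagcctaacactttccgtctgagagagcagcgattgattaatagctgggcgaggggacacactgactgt
The CRE of Dusp1 began 143 bases before the start site, and 1.79% of all 32851 windows held this motif. Its E-box (126 bases before the start site) does not overlap the CRE, and 7.15% of windows held one. The CArG box of Egr2 lay 72 bases before the start site of this window, and 1.63% of windows held one. Of the 10 windows of these genes 5 held a CArG box, but 3 of these were overlapping Egr2 windows around the same box. The others were a further Egr2 window and the Zfp36 window, where the box began 58 bases before the start site. EGR sites GCGGGGGCG were found in the Nr4a1 and Zfp36 windows (2.91% of all windows), and the form GCGTGGGCG in none of the 10 (0.612% of all). NF-kB sites were in 2 of the 10 windows and 4.51% of all. Gadd45b held an E-box and a TATA box TATAAA (13.6% of all), and the first Egr2 window an E-box. A match describes the letters of a window and nothing more.

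Total counts ran from 2019739 to 6303322 per library. Levels are given as CPM, counts scaled to a common library size, on TMM-scaled library sizes, where 1 count was worth 0.165 to 0.515 CPM. Stripped control replicate 1, the shallowest library, had the lowest level of its group for 9 of the 10 genes, a count that was not made over all genes. It also had 5.29% of the genes at 10 CPM or more in both other replicates at 0 counts, against 2.83% and 2.54% in the other 2 stripped control libraries, 0.559% to 0.893% with NGO and 0% to 0.307% in unstripped skin. The tissue itself differed between the groups. Summed markers of skeletal muscle (20 genes, all detected in every group) ran from 173 to 1455 CPM in unstripped, 47460 to 131800 CPM in stripped control and 21742 to 49518 CPM in NGO-treated skin. Basal epidermal markers (10 genes, all detected) ran from 23854 to 33255, 2181 to 3431 and 13573 to 21252 CPM in the same order. Suprabasal epidermal markers (9 genes) ran from 8381 to 14095, 293 to 527 and 1283 to 2389 CPM, with Ivl at 0 counts in stripped control skin. Endothelial markers (10 genes) ran from 46.0 to 60.7, 408 to 738 and 242 to 389 CPM. Adipocyte markers (10 genes) ran from 70.8 to 113, 1438 to 2436 and 829 to 944 CPM. Of these, Tie1 and Plin1 were at 0 counts in unstripped and Lep and Cidec in stripped control skin. Neutrophil markers (12 genes) ran from 82.7 to 113, 3534 to 10029 and 503 to 1656 CPM, with Ngp, Camp and Clec4d at 0 counts in unstripped skin and Camp at 0 in every group. Of the tested markers, 20 of 20 muscle genes rose after stripping and 0 of 20 were called with NGO against stripped control skin (median -1.53), 9 of 10 basal genes fell after stripping and 8 of 10 rose with NGO, and 6 of 11 neutrophil genes rose after stripping and 4 fell with NGO. Of 9 suprabasal genes 8 fell after stripping and 4 rose with NGO. The part of these shifts in the changes described next was not tested. In whole skin, fewer cells of a type and less RNA per cell cannot be told apart.

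**Figure D1:**
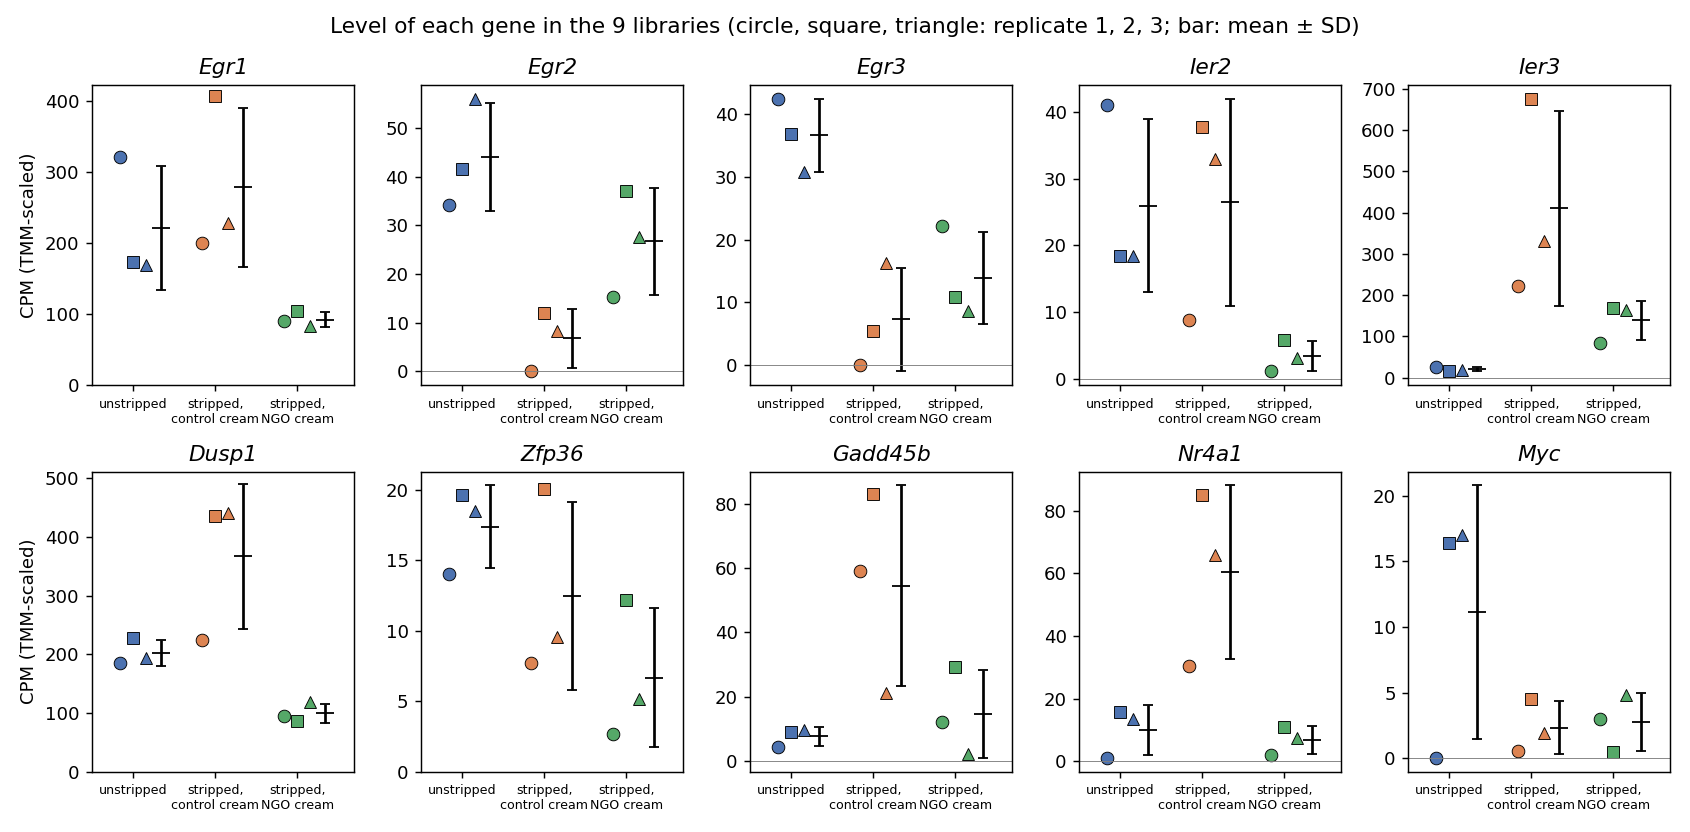
CPM of each of the 10 genes (vertical axis, TMM-scaled, 1 panel per gene with its own scale) in the 3 groups, with 1 point per library and the mean ± SD beside them. Ier3 is lowest in unstripped skin, Dusp1 and Egr1 are lowest with NGO, and Egr2 and Egr3 reach 0 in stripped control replicate 1.

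The first comparison, stripped control against unstripped skin, shows the state of these genes a day after injury. Ier3 rose 20.6-fold, and it was the only one of the 10 past the test (edgeR quasi-likelihood, Benjamini-Hochberg adjusted p under 0.05 over all genes). Of all 13740 genes tested 13.6% were called (5.97% higher and 7.64% lower), so that 1 of 10 is near the background. Gadd45b and Nr4a1 were also higher in every stripped control library than in any unstripped one, while Egr2 and Egr3 were lower in every one. These 5 genes with groups that did not overlap compare with 38.5% of all genes tested, 13.8% higher and 24.7% lower. The median log2 fold change of the 10 was 0.18, against -0.20 over all genes.

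Exon counts given with each gene are those of its longest annotated transcript. Ier3 (chromosome 17 of mm10, GENCODE M21, 35821684 to 35822923, 2 exons) measured 25, 15.2 and 19.6 CPM in unstripped replicates 1 to 3. It reached 223, 677 and 332 CPM in the stripped control libraries. With NGO it stood at 84.4, 169 and 164 CPM. The 3 groups formed separate ranges, with unstripped skin lowest and stripped control skin highest. The log2 fold change after stripping was 4.36 ± 0.49 (SE; edgeR adjusted p = 8.58e-05), larger than that of 96.8% of genes tested. NGO-treated skin was 6.96-fold above unstripped skin (2.80 ± 0.46, edgeR adjusted p = 0.00421). Both calls passed in all 18 alternative fits.

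Nr4a1 (chromosome 15, 101254269 to 101274795, 8 exons) measured 1.03, 15.8 and 13.5 CPM in unstripped skin, where replicate 1 rested on 3 counts. The stripped control libraries gave 30.4, 85.0 and 65.8 CPM, and those with NGO 2.10, 11.0 and 7.45 CPM. Stripped control skin thus lay above both other groups, which overlapped. The log2 fold change after stripping was 2.57 ± 0.94 (edgeR adjusted p = 0.0896) and with NGO against stripped control skin -3.13 ± 0.96 (0.0774), neither past the threshold. Both were called by DESeq2 (adjusted p = 0.0185 and 0.00613) and by edgeR with no filter on low counts (0.0496 and 0.0312). The first was also called by limma-voom (0.00752), and the second without stripped control replicate 1 (edgeR adjusted p = 0.048).

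Gadd45b (chromosome 10, 80930073 to 80932204, 4 exons) was also highest in stripped control skin. It went from 4.11, 8.80 and 9.68 CPM in unstripped skin to 59.2, 83.4 and 21.1 CPM in stripped control skin. In NGO-treated skin it was at 12, 29.2 and 2.15 CPM, which overlapped both other groups. The changes of 2.85 ± 0.93 after stripping (edgeR adjusted p = 0.0599) and -1.92 ± 0.90 with NGO (0.239) did not pass. After stripping Gadd45b was called in 7 of the 18 alternative fits, among them RLE scaling and the fit without stripped control replicate 3.

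Egr2 (chromosome 10, 67535475 to 67542188, 2 exons) and Egr3 (chromosome 14, 70077203 to 70082614, 2 exons) went the other way. Egr2 measured 34.2, 41.6 and 56.0 CPM in unstripped skin, then 0, 12 and 8.31 CPM in stripped control skin. With NGO it was at 15.3, 37.0 and 27.6 CPM, above every stripped control library and overlapping unstripped skin. For Egr3 the values were 42.4, 36.9 and 30.8 CPM without stripping, 0, 5.5 and 16.3 CPM after stripping, and 22.2, 10.8 and 8.61 CPM with NGO. Egr3 in both stripped groups lay below all unstripped libraries, and the stripped groups overlapped. The 0 values are from stripped control replicate 1, where 3 counts correspond to 1.54 CPM. After stripping the fitted changes were -2.67 ± 0.99 for Egr2 (edgeR adjusted p = 0.0933) and -2.31 ± 1.11 for Egr3 (0.195). With NGO against stripped control skin they were 1.95 ± 0.97 (0.266) and 0.91 ± 1.07 (0.692). Neither gene passed in any comparison, and of the 18 alternatives DESeq2 alone called Egr2 after stripping (adjusted p = 0.0263).

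Skin given graphene oxide was next set against stripped control skin. Dusp1 fell 3.69-fold and Egr1 fell 3.02-fold, and these 2 of the 10 genes passed, both lower. Of all genes tested 5.05% were called, 1.18% lower and 3.87% higher (162 and 532 genes, or 215 and 428 with RLE scaling). Besides these, Ier2, Ier3 and Nr4a1 were lower in every NGO-treated library than in any stripped control library, and Egr2 was higher. Groups were fully separated in the lower direction for 5 of the 10, against 8.92% of all genes tested, and in the higher direction for 1, against 16.3% (25.2% in either). The median of the 10 was -1.58, against 0.07 over all genes. The first comparison uses the same stripped control libraries, so that opposite signs in the 2 comparisons are no independent result. The spread in the NGO test was estimated over all 9 libraries, the unstripped ones included. In a fit of the 2 groups alone Dusp1 was the only 1 of the 10 called, and 118 of 12406 genes were called.

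Dusp1 (chromosome 17, 26505590 to 26562128, 3 exons) measured 185, 227 and 193 CPM in unstripped skin. Stripped control libraries gave 224, 435 and 441 CPM. With NGO it was at 94.3, 86.1 and 118 CPM, below all 6 other libraries. The change with NGO was -1.88 ± 0.33 (edgeR adjusted p = 0.00774). It was called in all 18 alternative fits, with adjusted p from 1.68e-06 to 0.0491. Against unstripped skin NGO-treated skin gave -1.02 ± 0.33 (0.167), and stripping alone 0.86 ± 0.33 (0.0994), neither past the threshold. Of the 18 alternatives limma-voom alone called the first (adjusted p = 0.0227). The second was called in 3: DESeq2, limma-voom and edgeR without stripped control replicate 1. The promoter window shown for Dusp1 lies inside its annotated span, away from the upstream end. That span overlaps Ergic1 on the opposite strand, and no source used here says whether counting used strand. Ergic1 was not called (1.5 ± 0.93 with NGO, edgeR adjusted p = 0.385). Whether reads of the shared span bear on the counts of Dusp1 was not tested.

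Egr1 (chromosome 18, 34859823 to 34864984, 2 exons) measured 322, 173 and 169 CPM in unstripped skin. It was at 200, 407 and 229 CPM in stripped control skin and at 89.8, 104 and 83.1 CPM with NGO. The unstripped and stripped control ranges overlapped, and the NGO-treated libraries lay below both. The change with NGO was -1.60 ± 0.37 (edgeR adjusted p = 0.0291), and stripping alone gave 0.33 ± 0.37 (0.629). The NGO call was lost without stripped control replicate 2 and without any 1 of the NGO replicates (up to edgeR adjusted p = 0.106) and in a fit of the 2 groups alone (0.0781). Its sign held in all 18 alternatives.

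Ier2 (chromosome 8, 84661331 to 84662852, 1 exon), which encodes a nuclear regulator outside the EGR family, was low with NGO in the same way. It measured 41.1, 18.5 and 18.5 CPM in unstripped, 8.75, 37.8 and 32.9 CPM in stripped control and 1.20, 5.75 and 3.14 CPM in NGO-treated skin. All 3 NGO-treated libraries lay below the other 6. The fitted changes of -2.96 ± 0.94 against stripped control (edgeR adjusted p = 0.0868) and -2.93 ± 0.94 against unstripped skin (0.168) did not pass. The first was lower than that of all but 3.03% of genes tested. It was called by DESeq2 (adjusted p = 0.00521) and without stripped control replicate 1 (edgeR adjusted p = 0.0311). The change against unstripped skin was called by DESeq2 alone of the 18 alternatives (adjusted p = 0.0146).

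For Ier3 the change with NGO was -1.56 ± 0.43 (edgeR adjusted p = 0.0546), just outside the threshold, and 6 of 18 alternatives called it, RLE and upper-quartile scaling included. Without stripped control replicate 1, the library with low values for 9 of the 10 genes, 5 genes were called lower with NGO: Dusp1, Egr1, Ier2, Ier3 and Nr4a1. Over all genes that fit called 929 of 14883, 264 of them lower, against 694 of 13740 and 162 lower in the reported fit. DESeq2 called the same 5 genes, and over all genes 1721 of 13740, 678 of them lower. Without stripped control replicate 2, which had the highest level of its group for 8 of the 10, Dusp1 alone was called. Over all genes that fit called 677 of 14639, 119 of them lower.

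**Figure D2:**
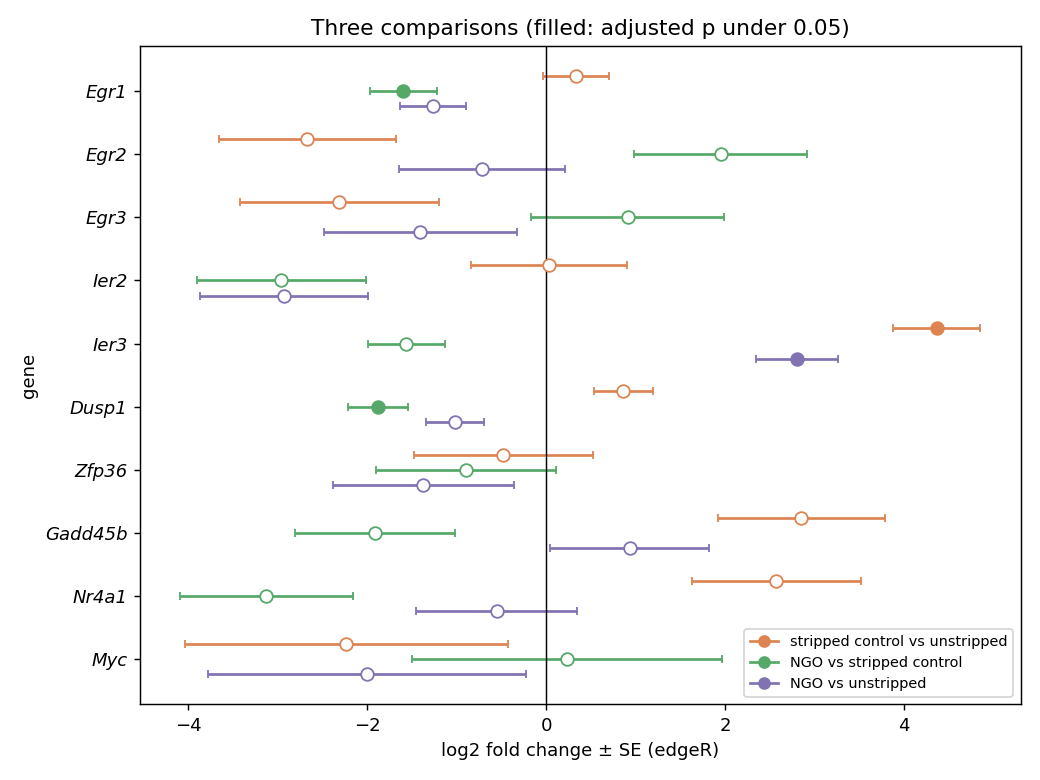
Fitted log2 fold change ± SE (horizontal axis) of each gene in the 3 comparisons, with filled points at an edgeR adjusted p under 0.05. Ier3 is filled against unstripped skin in both stripped groups, and Dusp1 and Egr1 are filled for NGO against stripped control skin.

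**Figure D3:**
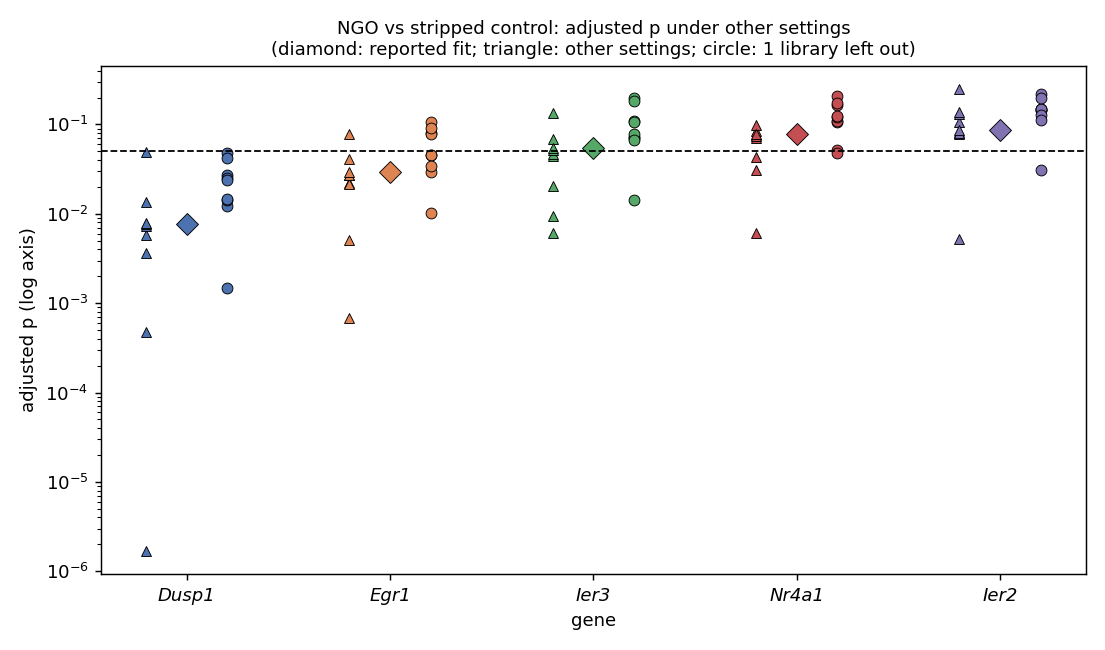
Adjusted p (log axis) for NGO against stripped control skin of the 5 genes whose NGO-treated libraries all lay below the stripped control libraries, in the reported fit (diamonds), under other settings (triangles) and with 1 library left out (circles). Dusp1 stays under the dashed line at 0.05 throughout, and the other 4 genes fall on both sides of it.

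Zfp36 (chromosome 7, 28376784 to 28380253, 2 exons) and Myc (chromosome 15, 61985391 to 61990374, 3 exons) did not pass in any comparison or alternative. Zfp36 measured 14.0, 19.6 and 18.5 CPM in unstripped skin, 7.72, 20.04 and 9.59 CPM in stripped control skin and 2.7, 12.2 and 5.13 CPM with NGO. NGO-treated skin lay below unstripped skin without overlap (-1.37 ± 1.01, edgeR adjusted p = 0.755). Myc was at 0 counts in unstripped replicate 1, where 3 counts correspond to 1.03 CPM, and at 16.4 and 17.0 CPM in the other 2 unstripped libraries. In the stripped libraries Myc ran from 0.515 to 4.53 CPM with control cream and from 0.460 to 4.80 CPM with NGO, below both of those. The unstripped range therefore overlapped both stripped groups through 1 library. Without unstripped replicate 1 the change after stripping was -2.83 (edgeR adjusted p = 0.384).

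The third comparison set NGO-treated against unstripped skin. Ier3 alone was called, higher, where 2.51% of genes were called, 2.06% higher and 0.451% lower. Egr1, Egr3, Ier2, Dusp1 and Zfp36 were lower in every NGO-treated library than in any unstripped one, and Ier3 was higher. Over all genes tested 26.2% were separated, 14.4% in the lower and 11.9% in the higher direction. The fitted changes of the 4 that were lower besides Ier2 ran from -1.40 for Egr3 to -1.02 for Dusp1, and their edgeR adjusted p from 0.120 for Egr1 to 0.774 for Egr3. Of the 18 alternatives 2 called Egr1 lower: DESeq2 (adjusted p = 0.0351) and edgeR on the 2 groups alone (0.0441). The median of the 10 was -1.14, against -0.07 over all genes.

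Among themselves the genes fell into patterns of different shape. Likeness was measured as the root mean square difference between log2 CPM profiles, each scaled to unit SD over the 9 libraries. Egr1 and Ier2 were the most alike pair (0.41), followed by Egr2 and Egr3 (0.45) and by Egr1 and Dusp1 (0.55). Egr2 and Egr3 were both at 0 counts in stripped control replicate 1, the shallowest library, and their likeness without it was not measured. Egr3 and Ier3 were the least alike (1.71). Spread between replicates differed too: the biological coefficient of variation was 0.325 for Dusp1, 0.355 for Egr1 and 0.399 for Ier3, against a median of 0.732 over all genes tested, and 1.30 for Myc. The 3 genes past a test are thus those with the smallest spread of the 10. Outside the 10, the genes with the profile closest to their mean profile, at an average log2 CPM of at least 3, were Pigu (0.29), Klf6 (0.32), Tra2b (0.41), Calm3 (0.42) and Ndufb3 (0.43). That mean averages profiles of opposed shape, and these genes are only the closest of all those eligible. Within stripped control skin the mean profile ran from -0.66 SD in replicate 1 to 1.73 SD in replicate 2. Klf6, a zinc finger transcription factor gene that is itself an immediate early gene, averaged 182, 260 and 110 CPM in unstripped, stripped control and NGO-treated skin.

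**Figure D4:**
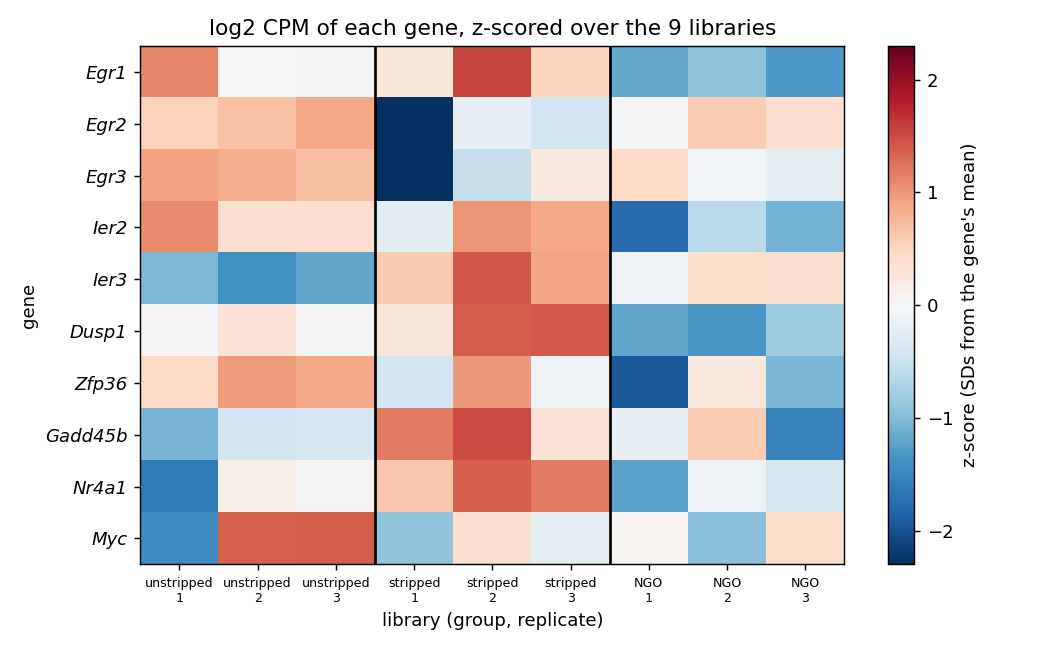
log2 CPM of each gene in each library, as SDs from the mean of that gene over the 9 libraries (colour scale). The row of Ier3 is below its mean in the 3 unstripped libraries, those of Egr2 and Egr3 are lowest in stripped control replicate 1, and those of Egr1, Ier2 and Dusp1 are below their means in the 3 NGO-treated libraries.

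The related genes were read from lists taken from general knowledge, but chosen with earlier results of these data known. Of 8 AP-1 genes Atf3 (3.07 ± 0.64, edgeR adjusted p = 0.00592) and Fosl1 (3.74 ± 0.83, 0.00901) rose after stripping. With NGO against stripped control skin Atf3 (-3.15 ± 0.64, 0.0164) and Fos (-1.78 ± 0.45, 0.0404) fell, 2 of 8. Fos went from 104 ± 55.2 CPM in unstripped and 67.7 ± 8.98 in stripped control skin to 19.6 ± 2.92 with NGO (SD, n = 3). Against unstripped skin Fos was lower (-2.40 ± 0.46, 0.0112) and Fosl1 higher (4.19 ± 0.85, 0.0152) in NGO-treated skin. The list medians were 0.69 after stripping and -0.73 with NGO.

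Of 21 tested other immediate early genes 6 rose and 1 fell after stripping, and 1 rose and 2 fell with NGO. Csrnp1, a nuclear factor induced by axin, rose by 3.10 ± 0.43 after stripping (edgeR adjusted p = 0.000344) and fell with NGO (-2.02 ± 0.41, 0.0161). Phlda1 rose by 3.43 ± 0.52 (0.000592). Ppp1r15a, whose product GADD34 restores protein synthesis after stress, was among the risers (2.49 ± 0.66, 0.0233) and fell with NGO (-3.09 ± 0.68, 0.0226). Klf4, a transcription factor of epidermal barrier formation, moved the other way: it fell after stripping (-2.38 ± 0.28, 0.000102) and rose with NGO (1.02 ± 0.27, 0.0452). The epidermal markers moved the same way, and their part in the change of Klf4 was not tested. The list medians were 1.01 and -0.92.

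Paralogues of Gadd45b, Zfp36 and Myc did not share 1 direction. Nr4a2 and Nr4a3, paralogues of Nr4a1, were counted among the other immediate early genes above. Gadd45g rose by 4.51 ± 0.51 (edgeR adjusted p = 8.58e-05), from 5.96 ± 1.67 to 136 ± 34.8 CPM (SD, n = 3), and fell with NGO to 40.9 ± 13.5 CPM (-1.74 ± 0.45, 0.0411). Zfp36l2 fell after stripping (-1.93 ± 0.42, 0.00736). Mycl had 0 counts in stripped control skin, at least 60.6-fold lower than in unstripped skin and at least 17.3-fold lower than with NGO, against a floor of 3 counts over the group. In all 1 of 5 tested rose and 2 fell after stripping, and 1 rose and 1 fell with NGO.

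**Figure D5:**
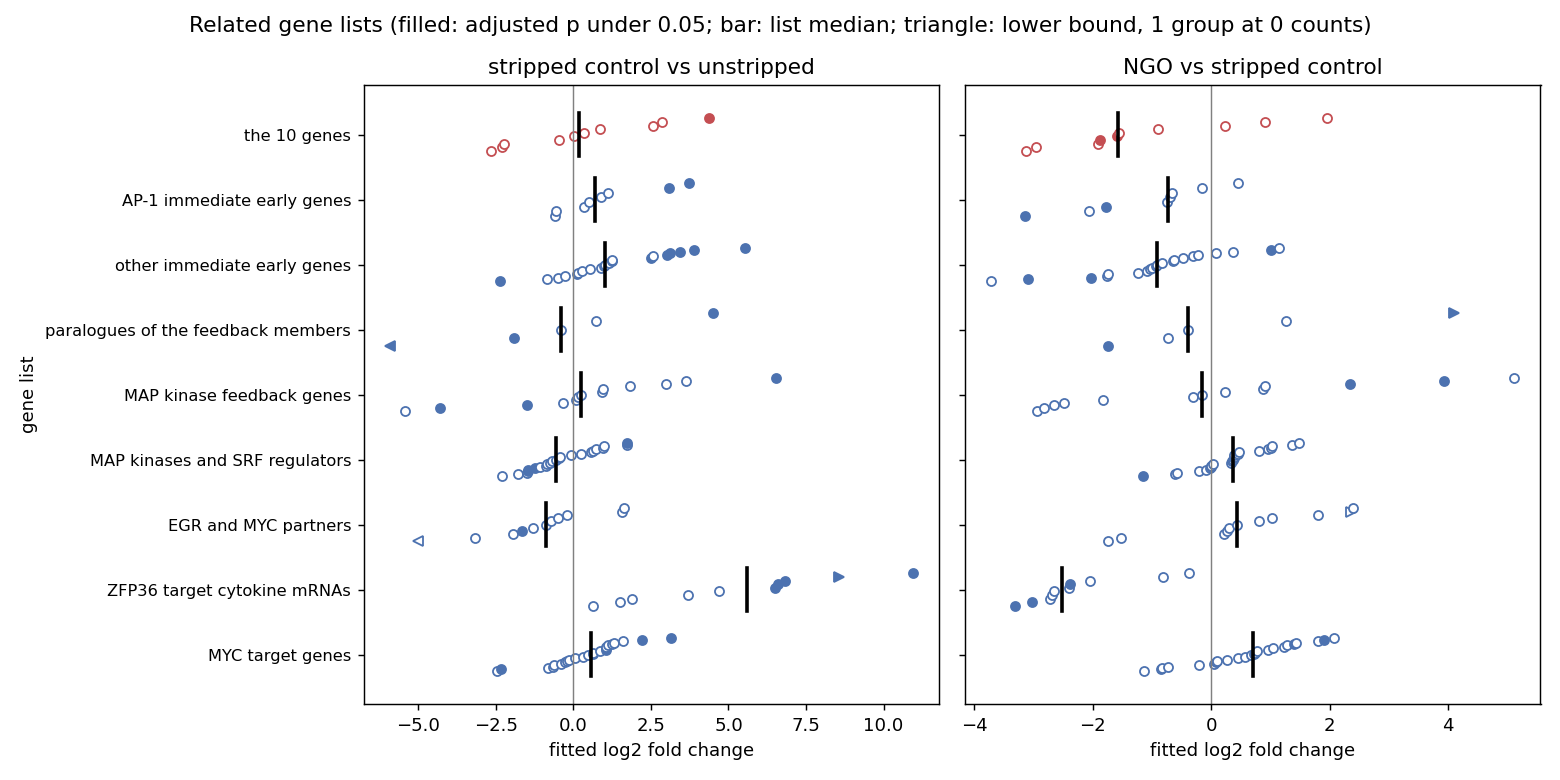
Fitted log2 fold change (horizontal axis) of the tested genes of each list after stripping (left) and with NGO (right), filled at an edgeR adjusted p under 0.05, with the list median as a bar and triangles for lower bounds where a group had 0 counts. The 10 genes spread on both sides of 0 after stripping and have a median of -1.58 with NGO.

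The other MAP kinase feedback genes, phosphatases and Sprouty and Spred inhibitors, had 1 riser and 2 that fell among 13 tested after stripping, and 2 risers with NGO. Dusp7, a phosphatase of ERK, fell after stripping (-1.51 ± 0.38, edgeR adjusted p = 0.0177) and rose with NGO (2.35 ± 0.39, 0.00507), from 32.3 ± 12 to 165 ± 22.1 CPM (SD, n = 3). Dusp14 fell after stripping (-4.29 ± 1.03, 0.0139) and rose with NGO (3.93 ± 1.02, 0.0431), while Dusp2, a phosphatase of immune cells, rose after stripping (edgeR adjusted p = 0.022) from 2 counts over the 3 unstripped libraries to 23.1 ± 7.32 CPM. Both phosphatases that rose with NGO therefore had the opposite sign to Dusp1. The list medians were 0.26 and -0.15.

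Upstream of many immediate early genes, 1 of 23 MAP kinase pathway and SRF regulator genes rose after stripping and 2 fell. Map2k3, a kinase that activates p38, rose by 1.74 ± 0.31 (edgeR adjusted p = 0.00176), reaching 348 ± 95.1 CPM against 104 ± 7.09, and fell with NGO to 156 ± 16.1 CPM (-1.16 ± 0.30, 0.044; SD, n = 3). Srf (-1.23 ± 0.38, 0.0463) and Creb1 (-1.46 ± 0.44, 0.0421) fell after stripping. Of 11 partners of EGR and MYC proteins, Nab2, a corepressor of EGR proteins, fell after stripping (-1.66 ± 0.50, 0.0411) and none was called with NGO. Medians were -0.55 and 0.36 for the upstream genes and -0.89 and 0.43 for the partners.

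Cytokine mRNAs known as ZFP36 targets were higher after stripping in 5 of 10 tested genes and lower with NGO in 3, while Zfp36 itself was not called. Cxcl2 (10.95 ± 0.75, edgeR adjusted p = 5.79e-06), Il1b (6.49 ± 0.56, 1.49e-05) and Ccl3 (0 counts in unstripped skin, at least 381-fold) had the smallest p after stripping. Cxcl2 (-3.03 ± 0.51, 0.00572), Il1b (-2.38 ± 0.46, 0.012) and Cxcl1 (-3.32 ± 0.85, 0.0415) fell with NGO. Neutrophil markers moved with them in both comparisons, and their part was not tested. The list medians were 5.59 and -2.53.

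Genes known as MYC targets moved in both directions. Of 24 tested, 3 rose and 1 fell after stripping, and 2 rose with NGO. Odc1, the first enzyme of polyamine synthesis, rose from 54.0 ± 12.4 to 481 ± 114 CPM (3.16 ± 0.38, edgeR adjusted p = 0.000135; SD, n = 3), and stood at 270 ± 100 CPM with NGO. Ldha rose by 2.22 ± 0.30 (0.000258) and Ccnd2, a cyclin gene, fell (-2.34 ± 0.30, 0.000196). The nucleolar genes Npm1 (1.40 ± 0.30, 0.0194) and Nop56 (1.90 ± 0.51, 0.0496) rose with NGO. The list medians were 0.55 and 0.70.

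In NGO-treated against unstripped skin, where 2.51% of all genes tested were called, 4 of 10 cytokine mRNAs were higher, and of the MYC targets 3 of 24 were higher (Odc1, Ldha and Gnl3) and 1 lower (Ccnd2). Gadd45g was higher (2.76 ± 0.48, edgeR adjusted p = 0.00551), Phlda1 was higher (2.51 ± 0.50, 0.0138) and Klf4 lower (-1.37 ± 0.27, 0.012). No gene of the MAP kinase feedback, upstream or partner lists was called.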

How the data were processed

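Whole-skin RNA was sequenced as 3′ tags (Lexogen QuantSeq, 500 ng of total RNA, per the labels' protocols). The deposited values are whole-number counts per gene symbol, 1 table per library; the submitters' processing notes name Bowtie2, bedtools and mm10 but no version, and strand use is not stated in any source used here. The authors' counts were used as deposited, and 44 repeat entries of a symbol were kept as entries of their own (23238 symbols, of which 22197, 95.5%, matched GENCODE M21). Tag counts are not divided by gene length, so levels were not ranked between genes.

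Counts were fitted with edgeR 4.0.16 (R 4.3.3): TMM factors, filterByExpr, 1 robust quasi-likelihood model over all 9 libraries with group as factor, and Benjamini-Hochberg adjustment over all 13740 tested genes at 0.05. SE is the fold change divided by the square root of F. Group values are mean ± SD of CPM. A floor of 3 counts over a group bounds folds against 0 counts and covers counting error only. Alternatives were RLE and upper-quartile scaling, other filters, DESeq2 1.42.0, limma-voom (limma 3.58.1) with sample weights, a replicate block, a fit of the 2 groups compared, library sizes without Rn45s, muscle, adipocyte and red blood cell genes, and leaving out each library. The 10 genes and the lists were chosen with earlier results of these data known. From each list, up to 3 called genes with the smallest p per comparison were named, and a gene named for 1 comparison may be given in another. No library pair agreed within counting noise (chi-square per degree of freedom 7.81 to 63.5).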

Additional observations from a re-analysis of the deposited data

How the results depend on the processing

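Of the alternative values for single genes, 494 kept direction and side of the threshold, 5 lost the call, 31 gained one and 10 changed sign. After stripping, the 10 genes gave 1 call in the reported edgeR fit, 2 with RLE scaling, with the replicate block and with the 2 groups alone, 3 with no filter, 4 with limma-voom and 5 with DESeq2, and 1 to 2 with 1 library left out. Over all genes, 1870 calls became 2976 with DESeq2 and 1159 to 2124 with 1 library left out. With NGO against stripped control skin, 2 of the 10 became 1 with the 2 groups alone, 3 with the block, 4 with no filter and 5 with DESeq2, and 1 to 5 with 1 library left out. Over all genes, 694 became 1721 with DESeq2, 414 with limma-voom and 118 with the 2 groups alone, and 206 to 929 with 1 library left out. Against unstripped skin, 1 of the 10 became 2 with limma-voom and with the 2 groups alone, and 3 with DESeq2, and was 1 with any library left out. Over all genes 345 became 756 with DESeq2, 1352 with limma-voom and 602 with the 2 groups alone, and 214 to 495 with 1 library left out. Fits without a library tested 14613 to 14936 genes, since the filter follows the smallest group; otherwise the cause was not tested. Signs changed for Ier2 after stripping (0.03, to -0.26 with the block and -0.25 to 0.52 with 1 library left out), Egr1 after stripping (0.33, to -0.023 to 0.69 with 1 left out), Myc with NGO (0.23, to -0.13 with limma-voom and -0.51 to 1.14 with 1 left out) and Gadd45b with NGO against unstripped skin (-0.11 to 1.43 with 1 left out). None of these was called. Whether the replicate numbers pair the libraries cannot be told from the labels, and 3 libraries per group are too few to decide it. Deviations from group means correlated at -0.057 to 0.086 between same-numbered libraries, and the best match had its own number in 0, 2 and 2 of 3 cases. The block gave 1650, 559 and 313 calls over all genes in the 3 comparisons, and among the 10 genes it added Nr4a1 after stripping (edgeR adjusted p = 0.0323) and with NGO (0.0434). RLE scaling moved the median of all genes from -0.20 to -0.07 after stripping and from 0.07 to -0.05 with NGO, with no change of sign among the 10 genes.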
